A study of Mus musculus with 39 samples.

Results

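The genes described here encode the secreted and membrane-bound metalloproteinases of the extracellular space, namely the matrix metalloproteinases (MMP), the ADAM, ADAMTS and ADAMTS-like (ADAMTSL) families, and the tissue inhibitors of metalloproteinases (TIMP). They were chosen by symbol, as those that begin with Mmp, Adam, Adamts, Adamtsl or Timp followed by a digit, and kept where the value was at least 20 in at least 5 libraries of the Smad4, Alk1 or Eng cohort. Of 24946 genes, 84 matched and 49 were kept, which are 11 of 23 MMP, 12 of 33 ADAM, 17 of 19 ADAMTS, 5 of 5 ADAMTSL and 4 of 4 TIMP genes. The threshold acts on the fifth-highest value of a cohort, which was 26.7 for Adamts20 and 33.5 for Adamts3 just inside it and 18.7 for Adam4 and 17.5 for Mmp23 just outside. The 35 genes that were not kept include Mmp3, Mmp7, Mmp8, Mmp10, Mmp12 and Mmp13, Adamts13 and Adamts19.

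Messenger RNA was measured in endothelial cells that had been pulled from whole brains of C57BL/6 mouse pups on beads with an antibody to PECAM. Every pup was homozygous for a floxed allele (Smad4f/f, Alk1f/f or Engf/f) and, per the labels' treatment protocol, received tamoxifen. Mutants also carried Cdh5-CreERT2, a tamoxifen-inducible Cre under the promoter of the endothelial cadherin gene, so that the gene was removed only in cells that express Cdh5. The wild types carried the floxed allele without Cre and hence do not control for Cre itself. The untreated cohorts held 5 wild types and 5 mutants each. Smad4 and Eng pups received 300 µg of tamoxifen on postnatal days 1 to 3 and were taken on day 7, and Alk1 pups received 100 µg on day 4 and were taken on day 6. The Alk1 cohort thus differs from the Smad4 and Eng cohorts in age, dose and time since tamoxifen as well as in the deleted gene. Further Smad4 pups, given 30 µg of control IgG or of LC10, an inhibitor of angiopoietin-2, on days 2 and 4, make up 3 IgG wild types, 3 IgG mutants and 3 LC10 mutants. Smad4 is a shared signal transducer of BMP and TGF-beta receptors, Alk1 (symbol Acvrl1) a receptor for BMP9 and BMP10, and Eng their co-receptor.

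Metalloproteinases carry a zinc ion in the active site, and most are made as inactive precursors. MMPs cut collagens, laminins and other matrix proteins, and some of them, such as Mmp14, are anchored in the cell membrane. ADAM proteins sit in the membrane and release the outer parts of receptors, ligands and adhesion molecules. ADAMTS proteins are secreted, bind matrix through thrombospondin repeats and cut proteoglycans and procollagens, whereas ADAMTSL proteins resemble them but lack the catalytic domain. TIMPs block the active site. In brain vessels this system is known for the turnover of the basement membrane while vessels sprout and for its effects on the blood-brain barrier.

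All values are normalized expression values. Changes are given as log2 fold changes ± SE of value plus 2, tested with limma and adjusted over all genes tested by Benjamini-Hochberg, and a gene is called at an adjusted p under 0.05. Whether libraries of a group came from separate pups is not stated, so the p-values measure the spread between these libraries. In the untreated cohorts library numbers are the order of columns, since those columns show the group only. The deposited values had been scaled by the authors, so the sequencing depth is unknown, and 16125 to 17708 genes had a value above 0. Smad4 stood at 1676 to 1916 in untreated Smad4 mutants against 5258 to 5903 in wild types, and Eng at 8613 to 11508 in Eng mutants against 60151 to 70402. Acvrl1 overlapped between Alk1 mutants (12441 to 15809) and wild types (14197 to 16756), so the value of the gene as a whole is no check of the Alk1 labels. Smad4 stood at 3030, 2099 and 1817 in the IgG mutants against 5625 to 5975 in IgG wild types, and at 1988, 2202 and 1979.9 in LC10 mutants on the scale of the IgG table. IgG mutant 1, the highest mutant in Smad4, was also the mutant nearest to the wild types in Adam12, Timp1 and Adamts16, and the part of this in the results was not tested. Without it 13 members were called in the IgG cohort, as with it. None of 8 endothelial markers was at 0. Of these 8, 3 were called lower and 2 higher in Smad4 mutants, 4 and 2 in Alk1, 5 and none in Eng and 3 and 1 in IgG mutants. Their sum was 404660 to 435489 in Alk1 mutants against 451088 to 494347 in wild types, 527709 to 558662 against 570725 to 647627 in the Eng cohort and 432232 to 468586 against 489525 to 490126 in the IgG cohort, without overlap. In the Smad4 cohort it overlapped, at 385602 to 481420 against 426889 to 502528. The part of these markers in the results was not tested.

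Markers of other cells moved with genotype too and are given here because several members move beside them. Of 9 fibroblast markers, 5 were called lower in Smad4 mutants, 3 in Alk1, none in Eng and 6 in IgG mutants, with no marker at 0 in a whole group. Their sum was 5538 to 9794 in Smad4 wild types and 1682 to 6713 in mutants, 6517 to 7837 in IgG wild types and 3243 to 5043 in IgG mutants, 4105 to 5177 and 3160 to 5666 in the Alk1 cohort and 6654 to 9999 and 6503 to 11060 in the Eng cohort. Of 6 smooth muscle markers tested, 5 were called lower in Smad4 and 5 in Alk1 mutants. The 7 listed markers summed to 3210 to 6423 in Smad4 mutants against 7422 to 8690 in wild types. In the Alk1 cohort their sum was 5004 to 7115 against 8243 to 9855. Neither pair overlaps, and some fits below hold the mural marker level (pericyte and smooth muscle). Genotype and marker level are hard to separate in those fits, so a call lost there is not shown to depend on mural cells. Of 12 pericyte markers 6 were called lower and 1 higher in Smad4, 3 and 1 in Alk1, none and 1 in Eng and 4 and 1 in IgG mutants. Of 8 neuronal markers 6 were called lower in Smad4, 1 in Alk1, none in Eng and 1 in IgG mutants. Of 8 astrocyte markers 2 were called lower in Smad4, none in Alk1, none in Eng and 1 in IgG mutants. For the oligodendrocyte lineage 3 of 7 tested were called lower in Smad4, none of 6 in Alk1, none of 7 in Eng and 2 of 7 in IgG mutants. Their sum was 7155 to 22038 in Smad4 wild types and 2583 to 8871 in Smad4 mutants. Of 6 choroid plexus markers 5 were called lower in Smad4 mutants and none in the other comparisons. Their sum was 29894 to 147320 in Smad4 wild types and 4001 to 26655.5 in mutants, without overlap. In the IgG cohort the sums overlapped, at 25244 to 93532 and 6880 to 30788.5, with a median log2 fold change of -1.43. No fit held the level of these markers, and their part in the results was not tested. Erythroid markers were called lower in Smad4 (4 of 5), Alk1 (4 of 5) and Eng mutants (3 of 6), and neutrophil markers higher in Alk1 mutants (4 of 4 tested, summed to 38.6 to 92.8 in wild types and 114 to 300 in mutants, with Ly6g at 0 in the wild types and Elane in the mutants). Of 3 neutrophil markers tested 1 was called lower in Smad4 and 1 in IgG mutants, and of 5 tested none in Eng. In such bulk samples fewer cells of a type and less RNA per cell cannot be told apart.

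Levels of different genes were compared per kilobase of exon, with all annotated exons of a gene joined. The joined length can exceed that of the transcripts present, which lowers the level of such a gene. Whether the deposited values were already adjusted for length is not known, so the ranks hold on this scale only. On it Adam10 was the highest member of every wild-type group. This sheddase of Notch receptors and cadherins stood at 4528 ± 319.5 per kb in Smad4, 5046 ± 268 in Alk1 and 5966 ± 361 in Eng wild types (SD, n = 5). In the Smad4 wild types it was followed by Adam15 (2165 ± 221), Adamts1 (1551 ± 353), Mmp28 (1369 ± 155) and Mmp15 (1322 ± 74.3). The spread of Adamts1 took in the means of Mmp28 and Mmp15, so the order of these 3 is not resolved. Timp3 (744 ± 91.9), Adam17 (738 ± 35.1) and Timp2 (709.9 ± 53.1) ranked 9, 10 and 11 of the 49 and lay close together. The gelatinase Mmp9 stood at 125 ± 45.8 per kb and Adam12 at 52.8 ± 8.94. Adamts18 (2.26 ± 1.09) and Adam23 (3.12 ± 1.39) were the lowest.

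In Smad4 mutants 11 of the 49 members rose and 6 fell, in Alk1 mutants 9 rose and 10 fell of 46 tested, and in Eng mutants 5 rose and 6 fell of 48. In the IgG-treated Smad4 mutants 8 rose and 5 fell of 49, or 8 and 4 of 48 without Adamts20, which passed the filter there through the wild types alone and is no support for a fall. With the library code of the column names as a term in the fit, no call was lost and more falls were called, with 11 higher and 12 lower in Smad4 (6428 of all 14012 genes called, 4620 without the code), 9 and 12 in Alk1 (5135 of 13635, 4530 without it) and 6 and 7 in Eng (3520 of 14350, 3082 without it). The members gained in Smad4, all lower, were Adam22, Adamts2, Adamts10, Adamts15, Adamtsl5 and Mmp24. These counts stand beside a broad response of the whole transcriptome. In the Smad4 comparison 33% of all genes tested were called (17.2% higher, 15.8% lower) against 17 of 49 members, and in the Alk1 comparison 33.2% (17.5% higher, 15.7% lower) against 19 of 46. For Eng the shares of all genes were 21.5% (12.4% higher, 9.08% lower) against 11 of 48 members, and for IgG 17.8% (9.67% higher, 8.12% lower) against 13 of 49. The shares of members were 34.7, 41.3, 22.9 and 26.5% (the last 25% without Adamts20), near the background for Smad4 and Eng and above it for Alk1 and IgG, a gap that was not tested. The median log2 fold change of the members was -0.10, 0.16, -0.03 and -0.12 for Smad4, Alk1, Eng and IgG in turn, beside -0.01, -0.01, -0.01 and 0.00 over all genes tested. With each library divided by its total, 37.2 in place of 52.1% of all Smad4 calls and 41.1 in place of 52.7% of all Alk1 calls were higher, and the members' split became 10 higher and 8 lower in Smad4 and 8 and 12 in Alk1.

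**Figure D1:**
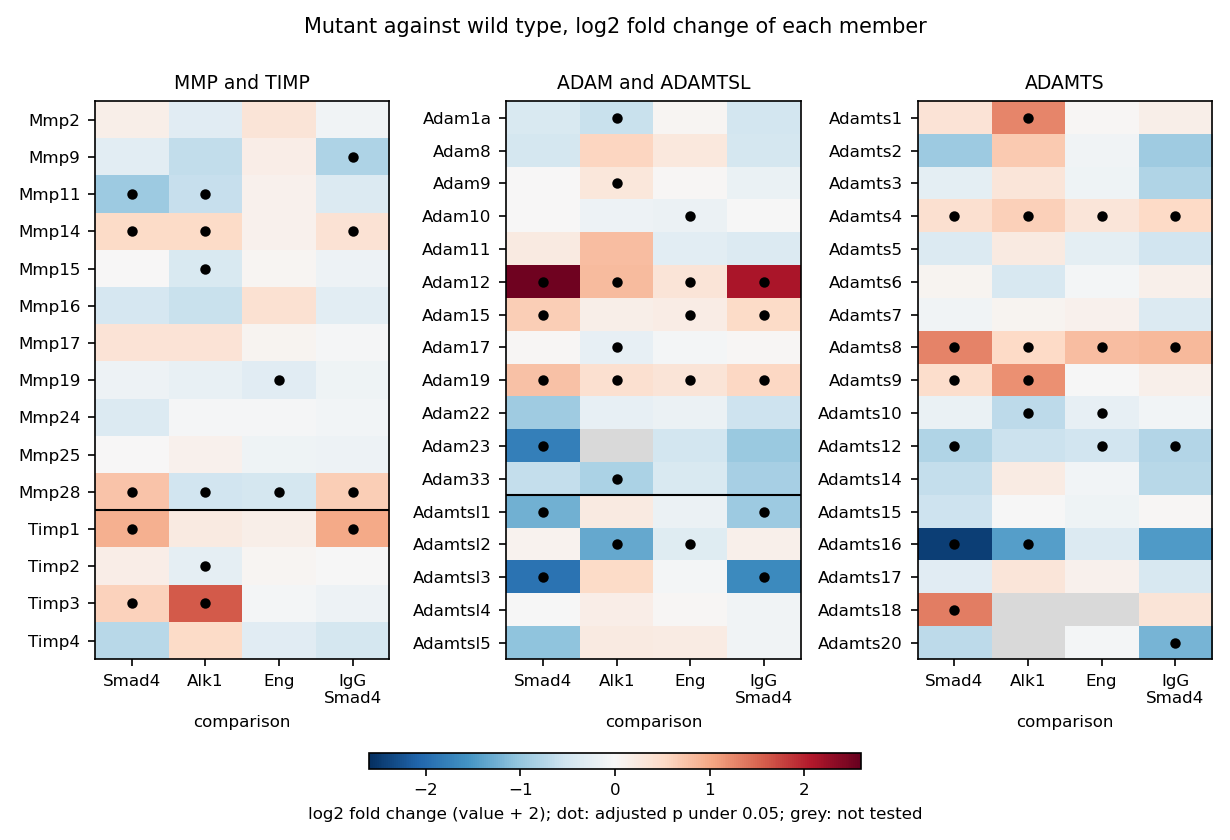
Log2 fold change (mutant against wild type) of each of the 49 members in the 4 comparisons, as colour from blue (lower in mutants) to red (higher), with a dot for an adjusted p under 0.05 and grey for a gene that was not tested. Adam12, Adam19, Adamts4 and Adamts8 are red with a dot in all 4 columns, and Mmp28 is red in the 2 Smad4 columns and blue in the Alk1 and Eng columns.

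Changes of at least 2-fold were called for 7 members in Smad4 (3 higher, 4 lower), 5 in Alk1 (3 and 2), none in Eng and 3 in IgG mutants (1 and 2, or 1 and 1 without Adamts20), against 7.37, 5.95, 0.969 and 3.26% of all genes. Wild types and mutants did not overlap for 14, 13, 9 and 22 members in the 4 comparisons, beside 22.8, 24.5, 16.5 and 41% of all genes. No member was tested with every library of 1 group under 20, except Adamts20 with the IgG mutants. In the Smad4 cohort, however, Adam23 reached 20 in every wild type but among the mutants in mutant 3 alone. Adamts18 reached 20 there in every mutant but not in wild types 3 and 4, and met the filter in no other untreated cohort. Both are counted among the 17 Smad4 calls and those of at least 2-fold, and neither is support for a change. Adam12, Adam19, Adamts4 and Adamts8 rose in all 3 untreated cohorts, 4 of 46 members tested in each, beside 4.81% of all genes, and no member fell in all 3, beside 3.1%. Of the 17 members called in untreated Smad4 mutants, 11 were called in the same direction in IgG mutants, which is 11 of the 13 called there (12 without Adamts20), beside 39 and 72.6% of all calls. Within each library code in the column names, which splits the untreated cohorts into subsets, every called member kept the sign of its fold change (17 of 17, 19 of 19 and 11 of 11). The calls were made from these same libraries, so this agreement was largely fixed in advance and is no replication. In the Eng cohort 1 of the subsets held 1 wild type and 1 mutant. The 3 mutants and 3 wild types of the Alk1 cohort without a code gave 8 calls in place of 19.

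The IgG counts rest on 6 libraries. Without wild type 1 or 2 there were 8 calls among the members, and without mutant 2 there were 6. With the mural marker level (pericyte and smooth muscle) in the fit 2 members were called, Adam12 and Mmp28. With the fibroblast marker level in it limma called none of the 49 members and none of 13939 genes, with 9 members and 982 genes at an unadjusted p under 0.05. Wild types and mutants of that cohort do not overlap in the fibroblast sum, so genotype and marker level cannot be told apart there.

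Among the matrix metalloproteinases, 2 rose and 1 fell of 11 in Smad4, 1 rose and 3 fell in Alk1, none rose and 2 fell in Eng, and 2 rose and 1 fell in IgG mutants. Beside these and the counts of the other subfamilies below, 33, 33.2, 21.5 and 17.8% of all genes were called. Mmp14 (chr14:54431612-54445364, a position in GENCODE release M21 on GRCm38, as are those that follow), the membrane-type enzyme that activates pro-Mmp2, stood at 5001, 4965, 4336, 4492 and 4152 in Smad4 wild types and 5972, 6101, 6018, 7212 and 7023 in Smad4 mutants. It stood at 5022, 5669.9, 4678, 4954 and 4803 in Alk1 wild types and 6511, 7271, 8924, 6759 and 6103 in Alk1 mutants. All mutants lay above all wild types in both cohorts, and the rises had nearly the same size, with log2 fold change 0.49 ± 0.08, adjusted p = 0.000667 for Smad4 and log2 fold change 0.49 ± 0.10, adjusted p = 0.00221 for Alk1. In the IgG cohort the wild types had 4196, 4123 and 4496 and the mutants 5233, 6072 and 5453 (log2 fold change 0.38 ± 0.07, adjusted p = 0.0128), a call that was lost without wild type 2 or mutant 2 (adjusted p from 0.0502 to 0.0508). Eng mutants (5661 to 6923) overlapped their wild types (5688 to 6137), at log2 fold change 0.11 ± 0.05, adjusted p = 0.161, and passed the threshold without Eng mutant 5 (adjusted p = 0.00978) and among the libraries 1 to 4 that share a code (0.0146). The effect in Smad4 exceeded that in Eng by 0.39 ± 0.11 (adjusted p = 0.031) and that in Alk1 exceeded Eng by 0.38 ± 0.11 (adjusted p = 0.02). The first of these calls was lost with each library divided by its total and both were lost after quantile normalization, with adjusted p up to 0.0626 and 0.0652.

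Mmp28 (chr11:83440768-83463071), epilysin, a secreted MMP, was the member that moved in opposite directions, and its values are given for that reason, chosen after they were seen. In the Smad4 cohort the wild types had 5243, 5249.9, 4383, 5997 and 5644 and the mutants 7874, 8765, 7743, 9429.5 and 10329, a rise (log2 fold change 0.73 ± 0.10, adjusted p = 0.000281). In the Alk1 cohort the wild types had 5970.4, 5907, 5425, 5299 and 5373 and the mutants 3863, 4848, 4343, 3575 and 3312, a fall (log2 fold change -0.50 ± 0.10, adjusted p = 0.0019). Eng wild types had 6649, 7506, 7482, 7375 and 8609 and Eng mutants 5662, 5374, 5109, 5331 and 5827, also a fall (log2 fold change -0.46 ± 0.06, adjusted p = 0.000254). No group of mutants overlapped its wild types. The IgG mutants (7381, 8339 and 8462) lay above the IgG wild types (5176, 4967 and 5337), with log2 fold change 0.64 ± 0.06, adjusted p = 0.00277. Smad4 differed from Alk1 by 1.23 ± 0.13 (adjusted p = 9.79e-08) and from Eng by 1.19 ± 0.13 (adjusted p = 3.92e-07), and 1 of 46 members moved both ways beside 1.99% of all genes. Among libraries without a code the fold change was 0.72 in Smad4 and -0.41 in Alk1, and among coded ones 0.76 and -0.63.

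Mmp15, another membrane-type enzyme (chr8:95352268-95375080), fell in Alk1 mutants, from 7899, 10073, 8251, 8764 and 8644 to 7381, 6698, 5823, 6830.1 and 6403 (log2 fold change -0.40 ± 0.08, adjusted p = 0.00261). The groups did not overlap. Elsewhere its groups overlapped, at 0.00 ± 0.05 in Smad4 (adjusted p = 0.973) and 0.05 ± 0.04 in Eng (adjusted p = 0.409). The Alk1 effect lay below the Smad4 effect (Smad4 minus Alk1 0.40 ± 0.08, adjusted p = 0.00128) and below the Eng effect (Alk1 minus Eng -0.45 ± 0.08, adjusted p = 0.000565). With the mural marker level in the fit the Alk1 call was lost (adjusted p = 0.0657), as it was in the uncoded libraries (adjusted p = 0.0714).

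The gelatinases Mmp2 and Mmp9, which cut denatured collagen and type IV collagen, were not called in any untreated cohort. Mmp2 (chr8:92827291-92853420) ranged over 821 to 1313 in Smad4 wild types and 944 to 1475 in mutants (log2 fold change 0.15 ± 0.15, adjusted p = 0.478), and over 566 to 740.4 and 456 to 742 in the Alk1 cohort (log2 fold change -0.30 ± 0.13, adjusted p = 0.0887). In the Eng cohort its wild types had 926, 909, 765, 858 and 860.4 and the mutants 913, 1079.8, 1347, 1231 and 901, with 3 of 5 mutants above every wild type (log2 fold change 0.33 ± 0.11, adjusted p = 0.0511). In Eng the rise passed the threshold under 6 alternatives, among them without mutant 1 or 5 (adjusted p = 0.0279 and 0.0202). In Alk1 a fall passed it under 4, which were without mutant 2 (adjusted p = 0.0106), with each library divided by its total (0.0342), with the mural marker level in the fit (0.0399) and in the coded libraries (0.0136). The 2 effects differed, Alk1 minus Eng being -0.63 ± 0.20 (adjusted p = 0.0306). Mmp9 (chr2:164940780-164955850) varied widely within groups, with 399, 565, 659, 304 and 292 in Smad4 wild types and 709, 461, 338, 364 and 129.5 in mutants (log2 fold change -0.26 ± 0.40, adjusted p = 0.633). In Alk1 wild types Mmp9 had 490.4, 809, 855, 392 and 352 and in Alk1 mutants 564, 384, 339.9, 356 and 190.0 (log2 fold change -0.64 ± 0.30, adjusted p = 0.123), which passed the threshold without mutant 1 (adjusted p = 0.0487) and in fits that held the level of glial and neuronal markers (0.0174) or the library code (0.0332). The 3 IgG mutants (279, 298 and 334) lay below the 3 IgG wild types (687, 542 and 397), and Mmp9 was called lower there (log2 fold change -0.80 ± 0.19, adjusted p = 0.0316). That call was lost without wild type 1 or 2 or mutant 1, 2 or 3 (adjusted p from 0.0521 to 0.104). Mmp9 is also made by leukocytes, and 4 of 8 microglial markers were called lower in IgG mutants, with sums of 10658 to 16967 against 17609.5 to 34802 in wild types and none at 0. Their part in the Mmp9 result was not tested.

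Mmp11, stromelysin-3, fell in Smad4 mutants from 235 ± 44.3 to 124 ± 36.7 (SD, n = 5, log2 fold change -0.94 ± 0.21, adjusted p = 0.00684) and in Alk1 mutants from 218.9 ± 31.2 to 144 ± 31.1 (log2 fold change -0.61 ± 0.16, adjusted p = 0.013). With the fibroblast marker level in the fit both calls were lost (adjusted p = 0.204 and 0.169). The Smad4 call of Mmp11 was also lost with the glial and neuronal (adjusted p = 0.0947) or mural level in the fit (0.108). Its Alk1 call was also lost with the mural level (adjusted p = 0.233) and in the uncoded libraries (0.153). Smad4 differed from Eng by -1.06 ± 0.26 (adjusted p = 0.00847). Mmp19 was called in the Eng comparison and in no other, where it fell from 1020.0 ± 61.1 to 830.1 ± 55.9 (log2 fold change -0.30 ± 0.06, adjusted p = 0.00494), a call lost when all 30 untreated libraries were fitted jointly (adjusted p = 0.0632). Mmp16, Mmp17, Mmp24 and Mmp25, all membrane-type enzymes, were not called in any comparison, but Mmp24 was called lower in Smad4 with the library code in the fit (-0.35, adjusted p = 0.0311).

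Of the 12 ADAM genes, 3 rose and 1 fell in Smad4, 3 rose and 3 fell of 11 in Alk1, 3 rose and 1 fell in Eng, and 3 rose in IgG mutants. Adam12 (chr7:133883199-134232146), a membrane protease of the meltrin group that is known to release EGF receptor ligands, had the largest rise of any member after loss of Smad4. Smad4 wild types had 668, 627, 570.4, 456 and 467 and Smad4 mutants 2602, 3236, 2938, 4059 and 3322, 5.78-fold apart (log2 fold change 2.53 ± 0.14, adjusted p = 3.54e-07). Every mutant lay far above every wild type. In the Alk1 cohort the wild types had 467, 479, 500.0, 395 and 463 and the mutants 1021, 776, 794, 785 and 717, again without overlap but with a smaller rise (log2 fold change 0.82 ± 0.10, adjusted p = 0.000104). In the Eng cohort the wild types had 678, 622, 582, 612 and 532 and the mutants 652, 884, 754, 716 and 829, where the lowest mutant lay below the highest wild type (log2 fold change 0.34 ± 0.09, adjusted p = 0.0192). That call was lost with the mural marker level in the fit (adjusted p = 0.0583), in the joint fit (0.0565) and among libraries 1 to 4 of each group, which share a code (0.0743). The 3 effects differed from each other, by 1.71 ± 0.16 (adjusted p = 1.71e-08) between Smad4 and Alk1, 2.19 ± 0.16 (adjusted p = 2.49e-10) between Smad4 and Eng and 0.48 ± 0.16 (adjusted p = 0.0449) between Alk1 and Eng, the last not with each library divided by its total. IgG wild types had 497, 432 and 542 and IgG mutants 1462, 2539.6 and 2650.2 (log2 fold change 2.13 ± 0.22, adjusted p = 0.00298). Within the Smad4 libraries without a code the fold change was 2.23 and within the coded ones 2.99.

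Adam19, the related meltrin beta, rose in all 4 comparisons, from 1058 ± 133 to 1796 ± 72 in Smad4 (log2 fold change 0.77 ± 0.08, adjusted p = 4.9e-05) and from 1397 ± 22.2 to 1759.9 ± 55.5 in Eng (log2 fold change 0.33 ± 0.04, adjusted p = 6.21e-05). The groups did not overlap in either cohort. The Smad4 effect on Adam19 exceeded the Eng effect by 0.44 ± 0.13 (adjusted p = 0.0317), not so with each library divided by its total. Its rises in Alk1 (log2 fold change 0.42 ± 0.12, adjusted p = 0.0206) and IgG mutants (log2 fold change 0.55 ± 0.09, adjusted p = 0.011) were lost without Alk1 wild type 4 (adjusted p = 0.0531) and without IgG mutant 2 (adjusted p = 0.057). Adam15, which carries an integrin-binding motif, rose in Smad4 (log2 fold change 0.63 ± 0.09, adjusted p = 0.000438), Eng (log2 fold change 0.19 ± 0.04, adjusted p = 0.0052) and IgG mutants (log2 fold change 0.49 ± 0.06, adjusted p = 0.00439) and was not called in Alk1 (log2 fold change 0.16 ± 0.08, adjusted p = 0.163). The Eng call of Adam15 was lost in the joint fit (adjusted p = 0.109), and its IgG call with the mural (adjusted p = 0.0583) or fibroblast level in the fit (0.698). For Adam15 Smad4 exceeded Alk1 by 0.47 ± 0.11 (adjusted p = 0.00306) and Eng by 0.44 ± 0.11 (adjusted p = 0.0105), the latter not after quantile normalization.

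**Figure D2:**
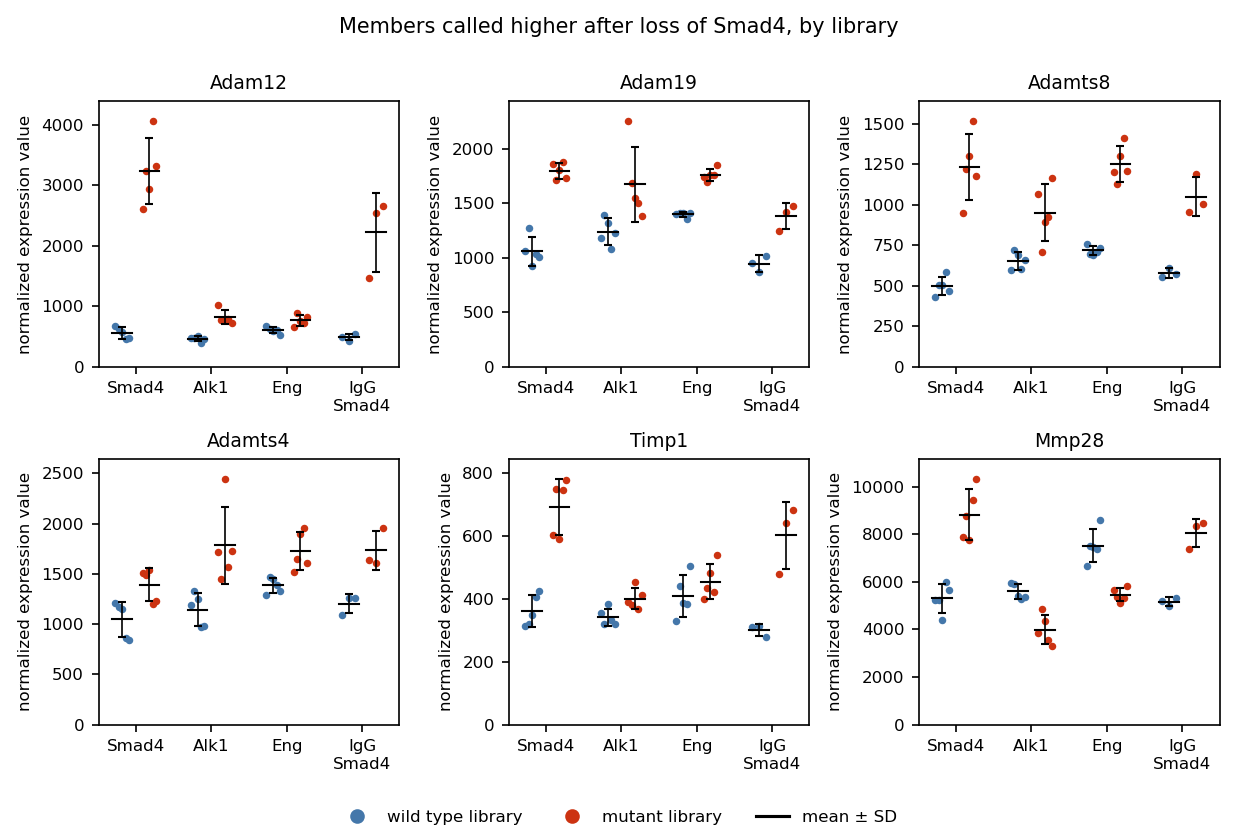
Normalized expression values of 6 members called higher in untreated Smad4 mutants, by cohort, with 1 point per library, wild types in blue, mutants in red and the mean ± SD in black. Adam12 mutants of the Smad4 cohort lie between 2602 and 4059 against 456 to 668 in wild types, and the Mmp28 mutants lie above their wild types in the Smad4 and IgG cohorts and below them in the Alk1 and Eng cohorts.

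Adam10 and Adam17, the main sheddases of endothelial cells, changed little. Adam10 (chr9:70678997-70780229) ranged over 19578 to 23525 in Smad4 wild types and 18744 to 24215 in mutants (log2 fold change 0.01 ± 0.08, adjusted p = 0.963), and its groups overlapped in all 4 comparisons. Eng wild types had 27042, 30617, 31298, 28003 and 29595 and Eng mutants 27594, 26016, 24538, 26219 and 27421, a small fall that was called (log2 fold change -0.15 ± 0.05, adjusted p = 0.0437) and was lost without wild type 2, 3 or 5 or mutant 2, 3 or 4 (adjusted p from 0.0723 to 0.11). In Alk1 mutants Adam10 was not called (log2 fold change -0.13 ± 0.06, adjusted p = 0.148) but passed the threshold with each library divided by its total (adjusted p = 0.0204) or after quantile normalization (0.00851). Adam17 (chr12:21323509-21373632), which releases TNF, ranged over 4889.6 to 5494 and 4828 to 5870.3 in Smad4 wild types and mutants (log2 fold change 0.03 ± 0.06, adjusted p = 0.75). Adam17 was called in the Alk1 comparison and in no other, at 4879.6, 5053, 5609, 5351 and 5104 in wild types and 4671, 4226, 4289, 4466 and 4698 in mutants (log2 fold change -0.22 ± 0.06, adjusted p = 0.013). Smad4 and Alk1 differed in Adam17 by 0.25 ± 0.07 (adjusted p = 0.0137). Adam9, a sheddase of broad expression, rose in Alk1 mutants (log2 fold change 0.30 ± 0.06, adjusted p = 0.00344), where the groups did not overlap, and the effect exceeded that in Smad4 (Smad4 minus Alk1 -0.28 ± 0.07, adjusted p = 0.00453). The Adam17 and Adam9 calls were lost with the mural marker level in the fit (adjusted p = 0.172 and 0.0611). They were also lost with the fibroblast level (adjusted p = 0.096 and 0.0504) and in the uncoded libraries (0.124 and 0.07).

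Adam23 (chr1:63445891-63596276) lacks a working catalytic site, binds LGI proteins and is best known from neurons. It was low throughout, at 96.8, 56.7, 47.8, 30 and 48.3 in Smad4 wild types and 17.9, 17.7, 52.8, 4.57 and 5.19 in mutants (log2 fold change -1.77 ± 0.56, adjusted p = 0.0327), with mutant 3 inside the range of the wild types. Adam23 met the filter there through the wild types, since among the mutants only mutant 3 reached 20. The call was lost without wild type 1, 2, 3 or 5 or mutant 4 or 5 (adjusted p from 0.0576 to 0.0803) and, with the level of glial and neuronal markers as a term, at adjusted p = 0.491. It was lost as well with the mural (adjusted p = 0.416) or fibroblast level in the fit (0.806), so the loss is not particular to neuronal markers. The 8 neuronal markers, of which none was at 0, summed to 2856 to 4787 in Smad4 wild types and 2164 to 3749 in mutants. Their part in the Adam23 result was not tested. The related Adam11 and Adam22 were not called, but with the library code in the fit Adam22 was called lower in Smad4 (-0.92, adjusted p = 0.0313) and Adam11 in Eng (-0.28, adjusted p = 0.0437). Adam11 also differed between Alk1 and Eng by 1.07 ± 0.33 (adjusted p = 0.0281). Adam1a (log2 fold change -0.58 ± 0.20, adjusted p = 0.0392) and Adam33 (log2 fold change -0.82 ± 0.26, adjusted p = 0.0284) fell in Alk1 mutants, and both calls were lost leaving out single libraries, for Adam1a without wild type 1, 2 or 3 or mutant 2, 3, 4 or 5 (adjusted p from 0.0515 to 0.098) and for Adam33 without wild type 2, 4 or 5 or mutant 2, 3 or 5 (adjusted p from 0.0547 to 0.0717). Adam8, a leukocyte ADAM, was not called.

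Among the 17 ADAMTS genes, 4 rose and 2 fell in Smad4, 4 rose and 2 fell of 15 in Alk1, 2 rose and 2 fell of 16 in Eng, and 2 rose and 2 fell in IgG mutants, with Adamts20 among the falls. Adamts1, Adamts4, Adamts8 and Adamts9 belong to the enzymes that cut versican and related proteoglycans. Adamts8 (chr9:30942562-30963838) and Adamts4 rose in all 4 comparisons, whereas Adamts1 (chr16:85793827-85803113) and Adamts9 (chr6:92772699-92943492) moved most in Alk1 mutants. Adamts8 stood at 432, 502, 503, 587 and 466 in Smad4 wild types and 948, 1217, 1301, 1516 and 1174 in mutants (log2 fold change 1.29 ± 0.12, adjusted p = 2.26e-05). In the Eng cohort it stood at 758, 697, 692, 707 and 733 and 1203, 1129, 1299, 1412 and 1209 (log2 fold change 0.80 ± 0.06, adjusted p = 5.59e-06), the largest rise of a member there. Mutants lay above wild types in both. In the Alk1 cohort Adamts8 had 596, 717, 691, 601 and 661 in wild types and 1063, 707, 894, 923 and 1167 in mutants, with mutant 2 among the wild types (log2 fold change 0.52 ± 0.12, adjusted p = 0.00624), a call that was lost in the uncoded libraries (adjusted p = 0.142). IgG wild types had 552, 611 and 574 and IgG mutants 954, 1188 and 1006 (log2 fold change 0.85 ± 0.10, adjusted p = 0.00422). The Smad4 effect on Adamts8 exceeded that of Alk1 by 0.77 ± 0.16 (adjusted p = 0.00087) and that of Eng by 0.50 ± 0.16 (adjusted p = 0.0447), the latter not with each library divided by its total.

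Adamts4, an aggrecanase, rose from 1047 ± 177 to 1394 ± 164 in Smad4 (log2 fold change 0.42 ± 0.12, adjusted p = 0.0238), from 1146 ± 163 to 1784 ± 387 in Alk1 (log2 fold change 0.63 ± 0.14, adjusted p = 0.0045) and from 1386 ± 75.9 to 1729 ± 189 in Eng (log2 fold change 0.31 ± 0.07, adjusted p = 0.00829). The Smad4 call was lost without wild type 4 or 5 or mutant 2 (adjusted p from 0.0513 to 0.0529) and with each library divided by its total (adjusted p = 0.0891), the Alk1 call with the mural marker level in the fit (adjusted p = 0.0543) or in the uncoded libraries (0.0769) and the Eng call in the joint fit (adjusted p = 0.104). In IgG mutants it rose by 0.53 ± 0.10 (adjusted p = 0.0145). The other aggrecanase, Adamts5, was not called in any comparison.

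Adamts1, which also acts against angiogenesis through its thrombospondin repeats, had 6880.3, 6730.5, 7305, 5537 and 5378 in Alk1 wild types and 11423, 16331, 33731, 12297 and 10454 in Alk1 mutants (log2 fold change 1.27 ± 0.26, adjusted p = 0.0032). All mutants lay above all wild types, and mutant 3 was highest by far. Adamts1 overlapped between groups in the other cohorts, at 0.36 ± 0.16 in Smad4 (adjusted p = 0.102), 0.03 ± 0.15 in Eng (adjusted p = 0.907) and 0.15 ± 0.17 in IgG mutants (adjusted p = 0.556). Within the coded Smad4 libraries its fold change was 0.82 (adjusted p = 0.0113) and within the others 0.06. Its Alk1 effect exceeded that of Smad4 (Smad4 minus Alk1 -0.90 ± 0.31, adjusted p = 0.0462) and that of Eng (Alk1 minus Eng 1.23 ± 0.31, adjusted p = 0.00738). Adamts9 went from 4024, 3698, 3689, 3591 and 3219.9 in Alk1 wild types to 6342, 9966, 12156, 7605 and 6923 in mutants (log2 fold change 1.20 ± 0.15, adjusted p = 0.000116), and it was highest in the same mutant 3. In the Smad4 cohort Adamts9 had 4865, 5019, 5233, 5559 and 5080.1 in wild types and 5732, 6020.4, 6204, 9375 and 8713 in mutants (log2 fold change 0.46 ± 0.13, adjusted p = 0.0231). There the 2 coded mutants, mutants 4 and 5, were the highest, and the fold change was 0.77 within the coded libraries and 0.25 in the others. The Smad4 call was lost without wild type 1 or mutant 5 (adjusted p from 0.0501 to 0.0527) and with the fibroblast marker level in the fit (adjusted p = 0.559). Adamts9 differed by -0.74 ± 0.21 (adjusted p = 0.0117) between Smad4 and Alk1 and by 1.21 ± 0.21 (adjusted p = 0.000179) between Alk1 and Eng, where it was not called (log2 fold change -0.01 ± 0.11, adjusted p = 0.973).

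In Smad4 mutants 2 of the 4 TIMP genes rose, in Alk1 mutants 1 rose and 1 fell, in Eng mutants none was called, and in IgG mutants 1 rose. Timp3 (chr10:86300372-86349506), which is held in the matrix and inhibits Adam17 and the aggrecanases as well as MMPs, had 5007, 4959, 5514, 5263 and 4735 in Alk1 wild types and 5709, 26438, 34114, 16197 and 10645 in Alk1 mutants, the largest rise of a member in that cohort (log2 fold change 1.60 ± 0.38, adjusted p = 0.00653). The mutants spread over a wide range, from mutant 1, just above the wild types, to mutant 3, which was also highest in Adamts1 and Adamts9. Within libraries without a code the Timp3 fold change was 1.74 and within the coded ones 1.39. With the mural marker level in the fit it was 0.87 (adjusted p = 0.152), with the fibroblast level 0.78 (adjusted p = 0.0765), and for Adamts1 the adjusted p was 0.078 and 0.0521 in these fits. Smad4 wild types had 7182, 5500.1, 6316, 5993 and 5287 and Smad4 mutants 7067, 8886, 8177, 9471 and 12583 for Timp3 (log2 fold change 0.59 ± 0.14, adjusted p = 0.00835). Mutant 1 lay below wild type 1, and the fold change was 0.35 without a code (adjusted p = 0.0697) and 0.96 with one. The Smad4 call for Timp3 was also lost with the mural (adjusted p = 0.13), fibroblast (0.219) or glial and neuronal level (0.114) in the fit and in the joint fit (0.0761). Eng (log2 fold change -0.05 ± 0.07, adjusted p = 0.664) and IgG mutants (log2 fold change -0.13 ± 0.16, adjusted p = 0.59) overlapped their wild types. Alk1 differed from Eng by 1.66 ± 0.38 (adjusted p = 0.00312).

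Timp1 (chrX:20870166-20874735), a secreted inhibitor with growth-promoting effects of its own, had 313, 319, 349.7, 407 and 425 in Smad4 wild types and 602, 749, 591, 745 and 777 in mutants (log2 fold change 0.93 ± 0.12, adjusted p = 0.000219). In the IgG cohort it had 312, 314 and 279 in wild types and 480.2, 641 and 684 in mutants (log2 fold change 0.98 ± 0.15, adjusted p = 0.00844). Both sets of mutants lay above their wild types by about the same amount. Timp1 was not called in Alk1, with 355, 320.3, 383, 333 and 319 in wild types and 391, 381, 453, 368 and 413 in mutants (log2 fold change 0.23 ± 0.09, adjusted p = 0.0759; adjusted p = 0.0428 after quantile normalization), or in Eng (log2 fold change 0.16 ± 0.12, adjusted p = 0.396). The Smad4 effect exceeded the Alk1 effect by 0.70 ± 0.16 (adjusted p = 0.00228) and the Eng effect by 0.77 ± 0.16 (adjusted p = 0.00191).

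Timp2 (chr11:118301069-118355740), which together with Mmp14 also takes part in the activation of pro-Mmp2, was called lower in Alk1 mutants by a small margin. The wild types had 2126, 2237, 1991, 2308 and 2219.7 and the mutants 1804, 2125, 1933, 1755 and 1637, with mutant 2 inside the range of the wild types (log2 fold change -0.24 ± 0.08, adjusted p = 0.0312). The call was lost without wild type 1, 2, 4 or 5 or mutant 1, 4 or 5 (adjusted p from 0.0511 to 0.0757). Smad4 wild types ranged over 2544 to 3067 and mutants over 2847 to 3675 (log2 fold change 0.18 ± 0.08, adjusted p = 0.0937), and the 2 effects differed by 0.42 ± 0.12 (adjusted p = 0.0139). Timp4 (chr6:115241892-115252205) was low, at 101 to 231 in Smad4 wild types and 37.2 to 188 in mutants (log2 fold change -0.72 ± 0.43, adjusted p = 0.212), and was not called in any comparison. Within the coded Smad4 libraries, 2 against 2, its fold change was -1.72 (adjusted p = 0.0068) and within the others -0.06.

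**Figure D3:**
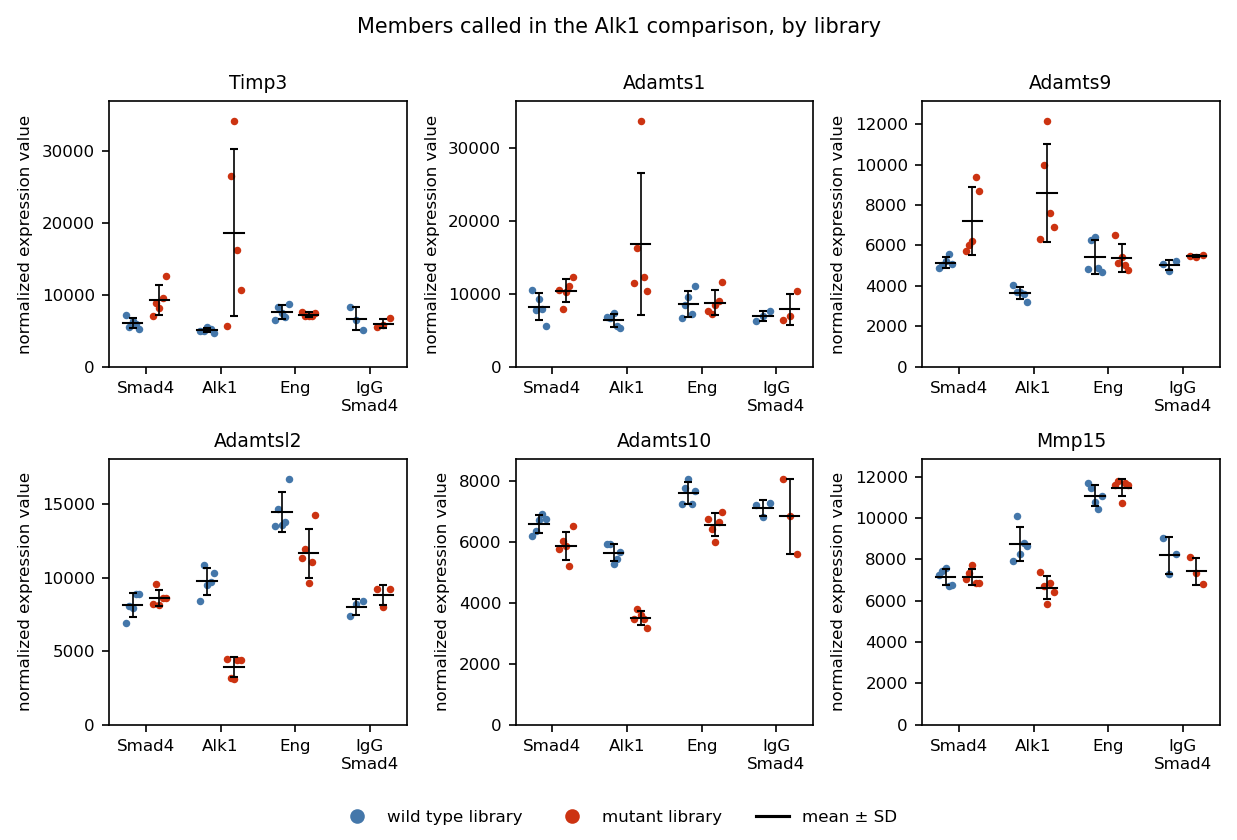
Normalized expression values of 6 members called in the Alk1 comparison, by cohort, with 1 point per library, wild types in blue, mutants in red and the mean ± SD in black. Alk1 mutants spread from 5709 to 34114 in Timp3 and from 10454 to 33731 in Adamts1, above all Alk1 wild types, and lie below them in Adamtsl2, Adamts10 and Mmp15.

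The sequences upstream of 5 members are shown because Timp3, Adamts1 and Adamts9 rose and Adamtsl2 fell at least 2-fold in Alk1 mutants, and because Mmp28 went both ways. Adamts16, which also fell at least 2-fold there, had no window in the table. They are the bases upstream of the RefSeq start site (GRCm38.p6, RefSeq table), up to 250, less any that GENCODE places in the gene, written 5′ to 3′ on the strand of the gene. Capitals mark the motifs searched on both strands, which were GGCGCC (a GC-rich element bound by BMP SMADs), GTCTG (the SMAD-binding element), TGANTCA (AP-1) and ACGTG (the hypoxia response core).
Timp3, chr10:86300162-86300371, plus strand: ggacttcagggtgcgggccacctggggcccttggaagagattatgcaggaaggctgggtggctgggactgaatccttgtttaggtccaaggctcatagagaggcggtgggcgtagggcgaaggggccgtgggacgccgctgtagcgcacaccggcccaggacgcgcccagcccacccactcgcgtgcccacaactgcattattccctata
Adamts1, chr16:85803114-85803363, minus strand: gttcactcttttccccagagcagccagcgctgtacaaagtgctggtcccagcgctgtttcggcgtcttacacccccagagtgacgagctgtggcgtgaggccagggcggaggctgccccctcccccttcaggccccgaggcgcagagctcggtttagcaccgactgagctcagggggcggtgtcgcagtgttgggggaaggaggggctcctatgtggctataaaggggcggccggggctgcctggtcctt
Adamts9, chr6:92943535-92943784, minus strand: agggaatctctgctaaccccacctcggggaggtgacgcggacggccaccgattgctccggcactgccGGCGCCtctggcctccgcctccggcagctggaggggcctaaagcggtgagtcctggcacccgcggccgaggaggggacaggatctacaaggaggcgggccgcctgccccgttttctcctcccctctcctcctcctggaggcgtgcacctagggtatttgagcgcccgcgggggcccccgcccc
Adamtsl2, chr2:27079129-27079378, plus strand: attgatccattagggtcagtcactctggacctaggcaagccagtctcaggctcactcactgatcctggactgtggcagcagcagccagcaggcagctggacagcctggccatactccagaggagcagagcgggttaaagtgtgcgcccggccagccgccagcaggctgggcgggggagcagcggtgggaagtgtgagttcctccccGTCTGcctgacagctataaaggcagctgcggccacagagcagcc
Mmp28, chr11:83463072-83463290, minus strand: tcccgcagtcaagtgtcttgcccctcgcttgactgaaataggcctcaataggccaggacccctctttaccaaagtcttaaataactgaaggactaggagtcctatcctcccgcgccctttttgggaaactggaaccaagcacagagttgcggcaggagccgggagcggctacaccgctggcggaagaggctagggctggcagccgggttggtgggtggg
Adamts9 holds GGCGCC in this stretch and Adamtsl2 holds GTCTG, and none of the 4 motifs stands in the stretches of Timp3, Adamts1 and Mmp28. Over the full 250 bases, 7 of the 31 members with a RefSeq window hold GGCGCC, 13 GTCTG, 1 TGANTCA and 8 ACGTG, beside 9.65, 42.2, 6.73 and 16.7% of 32536 windows of all genes. A member was counted if any of its windows held the motif, whereas the shares of all genes are per window. The members' counts are thus not on the same basis and can stand higher for that reason. A match of letters is a description and not a bound site. Adam12, Adamts8 and Adamts4 had no window in the table either.

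Adamts16 (chr13:70727802-70841811), a secreted protease that can cut fibronectin, fell most among all members after loss of Smad4. Smad4 wild types had 474, 464, 315, 363 and 305 and mutants 107, 103, 121, 69.3 and 14.3 (log2 fold change -2.45 ± 0.48, adjusted p = 0.00324). Alk1 wild types had 522, 665, 535, 456 and 466 and mutants 351, 129, 136, 239 and 178 (log2 fold change -1.44 ± 0.24, adjusted p = 0.000808). Mutants lay below wild types in both cohorts. In the Eng cohort wild types (342 to 614) and mutants (202 to 558) overlapped (log2 fold change -0.35 ± 0.24, adjusted p = 0.359), and Smad4 differed from Eng by -2.10 ± 0.53 (adjusted p = 0.0108). The IgG mutants (404, 142 and 103) all lay below the IgG wild types (621, 506 and 412), but the difference missed the threshold (log2 fold change -1.47 ± 0.45, adjusted p = 0.0594) and passed it without mutant 1 (adjusted p = 0.00279). With the fibroblast marker level in the fit the Smad4 value was -1.04 (adjusted p = 0.0643) and the Alk1 value -0.91 (adjusted p = 0.00436). With the mural level these were -1.16 (adjusted p = 0.0017) and -0.90 (adjusted p = 0.0141). With the glial and neuronal level the Smad4 value was -1.42 (adjusted p = 0.0347).

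Adamts18 (chr8:113697126-113848738), the closest relative of Adamts16, moved the other way from a low level. It had 40.1, 26.5, 12.5, 14.3 and 21.8 in Smad4 wild types and 44.7, 44.1, 61.3, 57.1 and 81 in mutants (log2 fold change 1.33 ± 0.33, adjusted p = 0.0107). Adamts18 was kept as a member through the Smad4 cohort alone, where its 5 highest values were those of the mutants, so this call is no support for a rise. The call was lost with the mural (adjusted p = 0.104) or fibroblast level in the fit (0.057) and among libraries without a code (0.155). It was too low to be tested in the Alk1 and Eng cohorts and was not called in IgG mutants (log2 fold change 0.34 ± 0.39, adjusted p = 0.573). Adamts12 fell in Smad4 from 1702 ± 64.1 to 991 ± 88.9 (log2 fold change -0.78 ± 0.07, adjusted p = 1.37e-05) and in Eng from 3700.4 ± 158 to 2645 ± 229 (log2 fold change -0.49 ± 0.06, adjusted p = 0.00011), both without overlap. The Eng call of Adamts12 was lost in the joint fit (adjusted p = 0.0604). In IgG mutants Adamts12 fell as well (log2 fold change -0.75 ± 0.18, adjusted p = 0.0293), lost without wild type 1 or 3 or mutant 2 or 3 (adjusted p from 0.0615 to 0.0907), and in Alk1 it was not called (log2 fold change -0.57 ± 0.25, adjusted p = 0.101). The Alk1 fall of Adamts12 passed the threshold with the library code in the fit (adjusted p = 0.0285), in the joint fit (0.00859), with glial and neuronal markers as a term (0.0157) and in the coded libraries, where the fold change was -0.94 (0.0318) beside -0.31 in the others. Adamts10, which takes part in the assembly of fibrillin microfibrils, fell in Alk1 from 5652 ± 291 to 3509 ± 223 (log2 fold change -0.69 ± 0.06, adjusted p = 7.49e-06) and less in Eng (log2 fold change -0.21 ± 0.05, adjusted p = 0.00645). The Alk1 effect was below that of Smad4 (Smad4 minus Alk1 0.52 ± 0.08, adjusted p = 2.26e-05) and of Eng (Alk1 minus Eng -0.48 ± 0.08, adjusted p = 0.000109), and Adamts10 was not called in Smad4 (log2 fold change -0.17 ± 0.06, adjusted p = 0.0513), where it passed the threshold with each library divided by its total (adjusted p = 0.0123) or with the library code in the fit (0.0352).

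Adamts20 (chr15:94270163-94465418) was low, with 28.5, 30.6 and 33 in IgG wild types and 8.81, 13.5 and 14.8 in IgG mutants (log2 fold change -1.21 ± 0.33, adjusted p = 0.0429), and it passed the filter there through the wild types alone. The call was lost without wild type 1, 2 or 3 or mutant 1, 2 or 3 (adjusted p from 0.0797 to 0.124). In the untreated cohorts its groups overlapped. Adamts2, Adamts3 and Adamts14, which trim procollagens, were not called in any comparison, but Adamts2 was called lower in Smad4 with the library code in the fit (-0.94, adjusted p = 0.00623) and differed between Smad4 and Alk1 by -1.62 ± 0.45 (adjusted p = 0.0128). Adamts5, Adamts6, Adamts7, Adamts15 and Adamts17 were not called either, except Adamts15 in Smad4 with the library code in the fit (-0.54, adjusted p = 0.048).

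Of the 5 ADAMTSL genes, 2 were called lower in Smad4, 1 in Alk1, 1 in Eng and 2 in IgG mutants, and none was called higher. Over all genes 15.8, 15.7, 9.08 and 8.12% were called lower. The median log2 fold change of the 5 genes was -1.05, 0.22, -0.06 and -0.10 in turn, so those not called did not all go down. Adamtsl2 (chr2:27079379-27108981), which binds fibrillin and the latent TGF-beta binding protein Ltbp1, had 8428, 10836, 9483, 9704 and 10319.9 in Alk1 wild types and 4481, 3166, 3129, 4409.9 and 4386 in mutants, 2.52-fold lower and without overlap (log2 fold change -1.33 ± 0.12, adjusted p = 7.01e-06). In the Eng cohort it had 13482, 14632, 13601, 13778 and 16715 and 11347, 11946, 9638, 11036 and 14232, with Eng mutant 5 inside the range of the wild types (log2 fold change -0.32 ± 0.09, adjusted p = 0.0271). The Eng call was lost without wild type 2 or 5 or mutant 1, 3 or 4 (adjusted p from 0.0541 to 0.0625). Smad4 wild types (6945 to 8908) and mutants (8110.1 to 9536) overlapped (log2 fold change 0.08 ± 0.07, adjusted p = 0.408), and Smad4 and Alk1 differed by 1.41 ± 0.15 (adjusted p = 8.52e-08). Alk1 also differed from Eng, by -1.01 ± 0.15 (adjusted p = 2.79e-05).

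Adamtsl1 (chr4:85514172-86428385) and Adamtsl3 (chr7:82335694-82614450), 2 matrix proteins of the punctin group, fell after loss of Smad4. Adamtsl1 had 257, 179, 151, 145.7 and 155 in wild types and 91.8, 67.6, 87.2, 63.6 and 55.6 in mutants (log2 fold change -1.25 ± 0.20, adjusted p = 0.00101). Adamtsl3 had 214, 135, 125, 83.5 and 86.9 and 26.7, 61.5, 82, 22.9 and 7.84 (log2 fold change -1.91 ± 0.52, adjusted p = 0.0179). The mutants lay below the wild types for both genes. In the IgG cohort Adamtsl1 had 157, 172 and 109.7 in wild types and 95.8, 76.8 and 53 in mutants (log2 fold change -0.95 ± 0.27, adjusted p = 0.0489), lost without wild type 1, 2 or 3 or mutant 2 or 3 (adjusted p from 0.0537 to 0.15). There Adamtsl3 had 116, 152 and 81.3 and 58.2, 28.5 and 24.5 (log2 fold change -1.65 ± 0.37, adjusted p = 0.026), lost without wild type 1 or 2 or mutant 2 or 3 (adjusted p from 0.0636 to 0.0967). Neither was called in Alk1 or Eng, and Smad4 differed from Alk1 by -1.49 ± 0.28 (adjusted p = 0.000417) for Adamtsl1 and -2.42 ± 0.60 (adjusted p = 0.00513) for Adamtsl3. The fibroblast markers were lower in the same mutants, with the sums given before the results, and with their level in the fit the Smad4 value was -0.75 for Adamtsl1 (adjusted p = 0.027) and -0.44 for Adamtsl3 (adjusted p = 0.538). The Smad4 call of Adamtsl3 was also lost with the glial and neuronal (adjusted p = 0.257) or mural level in the fit (0.269). The Smad4 call of Adamtsl1 was kept under every alternative. The part of any of these markers in the Adamtsl1 and Adamtsl3 results was not tested. Adamtsl5 was not called in any comparison but was lower in Smad4 with the library code in the fit (-1.05, adjusted p = 0.0409) and differed between Smad4 and Alk1 by -1.28 ± 0.44 (adjusted p = 0.0434), not so after quantile normalization, and Adamtsl4 was not called.

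**Figure D4:**
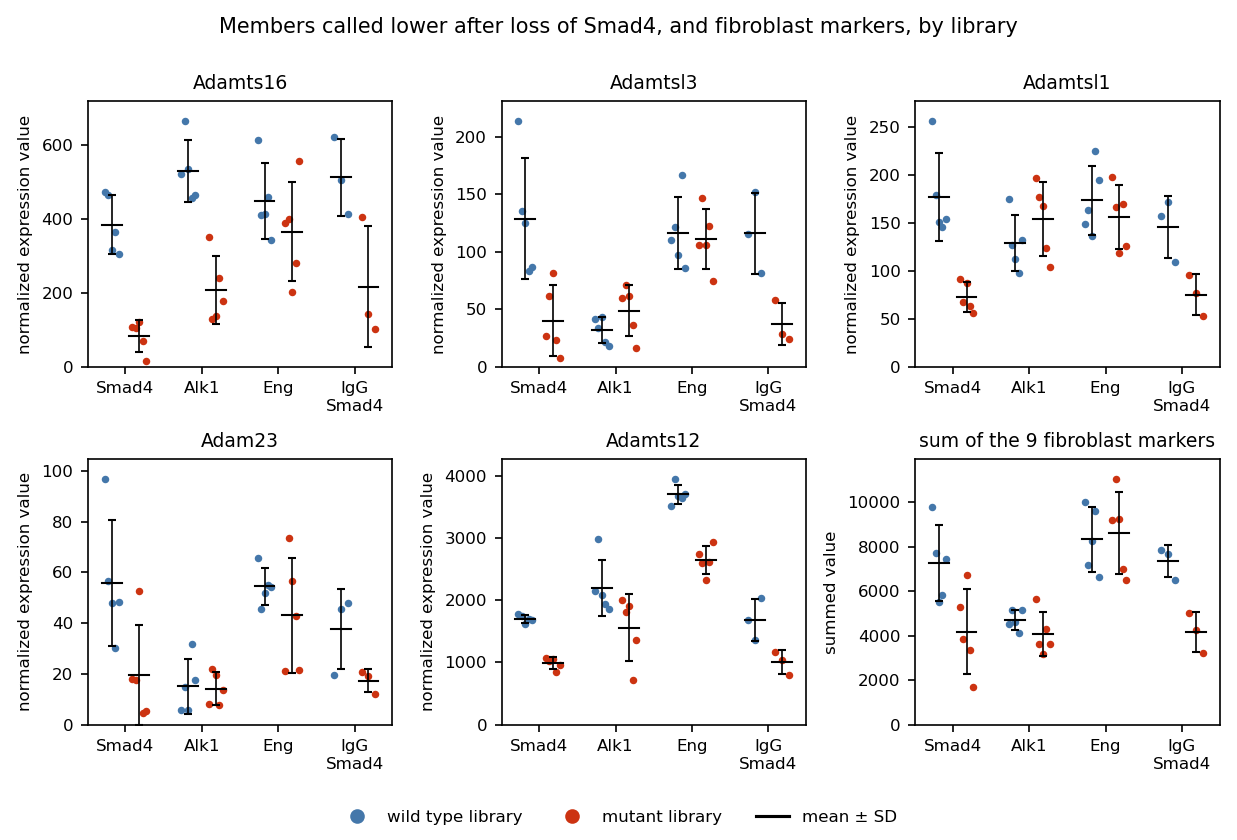
Normalized expression values of 5 members called lower in untreated Smad4 mutants and the sum of the 9 fibroblast markers, by cohort, with 1 point per library, wild types in blue, mutants in red and the mean ± SD in black. Smad4 mutants lie below wild types in Adamts16, Adamtsl3, Adamtsl1 and Adamts12 and overlap them in Adam23 (4.57 to 52.8 against 30 to 96.8) and in the marker sum.

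Between cohorts, the genotype effect differed for 17 of 46 members between Smad4 and Alk1, 10 between Smad4 and Eng and 11 between Alk1 and Eng, beside 17.1, 8.65 and 15.8% of all genes. The effect was higher in Smad4 for 10 of the 17 and 7 of the 10, and higher in Alk1 than in Eng for 7 of the 11. With each library divided by its total the median of all genes shifted by -0.10 in both comparisons with Eng, and the splits became 4 higher and 4 lower for Smad4 minus Eng (34.1 in place of 52.9% of all calls higher) and 5 and 7 for Alk1 minus Eng (38.6 in place of 54.1%). Adam12 differed in all 3 pairs on the deposited scale. In the pairs with Alk1 the deleted gene cannot be told apart from age, tamoxifen dose and time since tamoxifen, which also differed.

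LC10, the angiopoietin-2 inhibitor, was compared with IgG in Smad4 mutants without a test, since each treatment has a table of its own and treatment and table cannot be told apart. LC10 values were multiplied by 1.29, the median of ratios to the IgG table. On that scale all 3 LC10 mutants lay below all 3 IgG mutants for 7 members and above them for 2, beside 10.2 and 8.2% of all genes (18.4% without overlap in all). With each library divided by its total 8 members lay below and 2 above. As deposited, 22 members lay below and none above, so the counts depend on the tables being brought to 1 scale. After scaling by the median of ratios the lower ones were Mmp14, Mmp2, Timp3, Adamts9, Adamts5, Adamts17 and Adam11, and the higher ones Adamtsl2 and Adam23.

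Mmp14 stood at 4260.0, 3866 and 4058 in the LC10 mutants, beside 5233, 6072 and 5453 in IgG mutants and 4196, 4123 and 4496 in IgG wild types, so that the LC10 mutants lay in or below the range of the wild types. Mmp2 stood at 917, 925 and 900.5 in LC10 mutants, below both IgG mutants (1197 to 1401) and IgG wild types (1221 to 1549). Timp3 had 5221, 4854 and 5179.7 under LC10 and 5454, 5824 and 6694 under IgG, and Adamts9 had 4564, 4433 and 4751 and 5459, 5412 and 5532. These 4 members differed by -0.46, -0.48, -0.23 and -0.26 on the log2 scale. Adamtsl2 was higher, at 10483, 9947 and 11201 against 9205, 8033 and 9231, a difference of 0.26. The members that had risen most in Smad4 mutants overlapped between the treatments, with Adam12 at 1971, 1619 and 2065 under LC10 and 1462, 2539.6 and 2650.2 under IgG, Timp1 at 529, 462 and 439 and 480.2, 641 and 684, and Adamts8 at 989, 835 and 946 and 954, 1188 and 1006. All 3 LC10 mutants lay above the IgG wild types in Adam12, Timp1 and Adamts8. The 12 pericyte markers, on the same scale, summed to 42017 to 57394 in LC10 mutants, beside 61402 to 92901 in IgG mutants, with none at 0, and their part in the LC10 values was not tested.

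**Figure D5:**
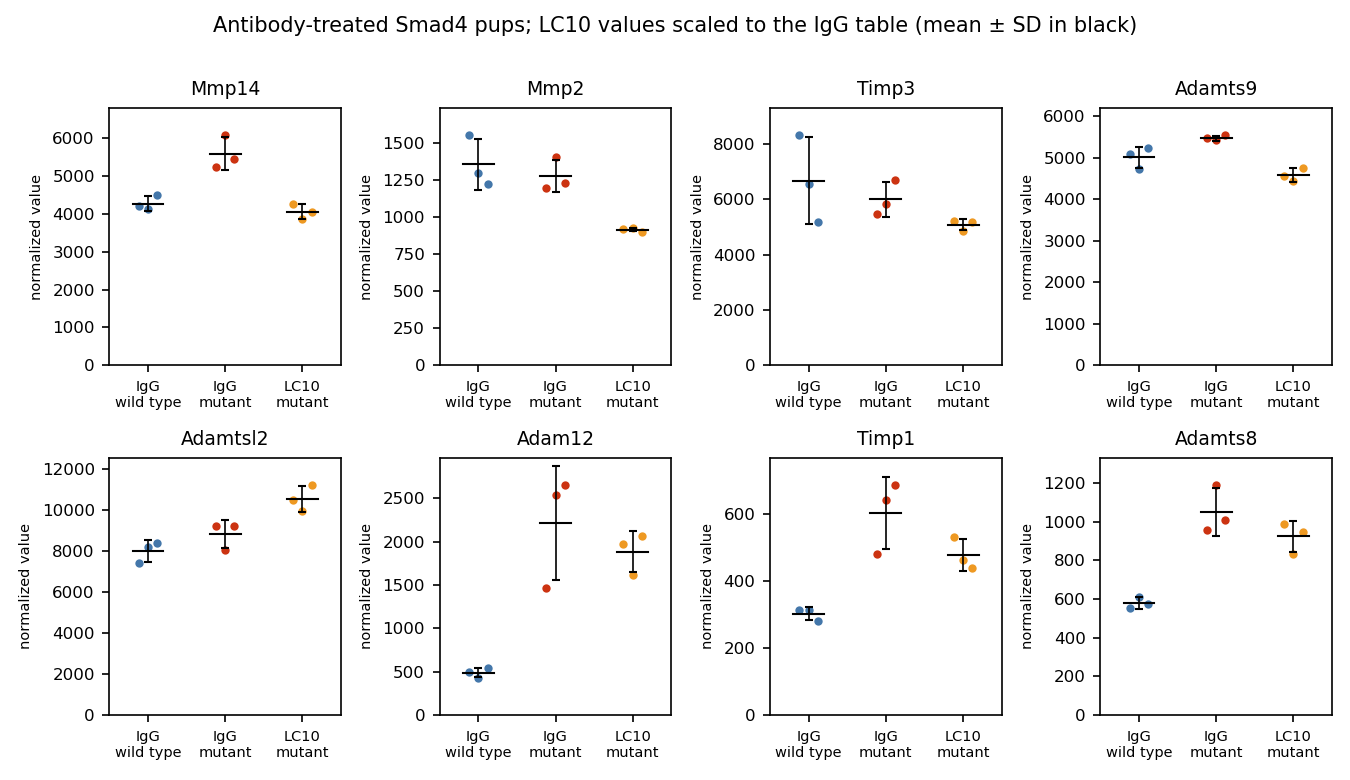
Normalized expression values of 8 members in antibody-treated Smad4 pups (3 libraries per group, mean ± SD in black), with LC10 values multiplied by 1.29 to bring them to the scale of the IgG table. LC10 mutants lie below IgG mutants in Mmp14, Mmp2, Timp3 and Adamts9, above them in Adamtsl2, and overlap them in Adam12, Timp1 and Adamts8.

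Genes that act on the metalloproteinases were followed as a list of 29, covering proprotein convertases that activate them, the plasminogen activator system, and partners of Adam10 and Adam17. In Smad4 mutants 8 rose and 6 fell of 27 tested, in Alk1 9 and 5 of 26, in Eng 5 and 5 of 28, and in IgG mutants 4 and 3 of 27, with list medians of 0.11, 0.12, -0.02 and -0.08. Beside them 33, 33.2, 21.5 and 17.8% of all genes were called in these comparisons, and the gaps were not tested. From this and each list that follows, at most 6 genes with the smallest adjusted p over the untreated cohorts are named, so they were picked by their result. Pcsk6, a convertase that acts in the matrix, rose by 2.77 ± 0.33, 3.34 ± 0.30, 1.31 ± 0.27 and 1.31 ± 0.37 in Smad4, Alk1, Eng and IgG mutants in turn (log2 scale, adjusted p = 0.000122, 7.83e-06, 0.00505 and 0.0459), whereas its relative Pcsk5 fell in Smad4 (log2 fold change -0.56 ± 0.13, adjusted p = 0.00922) and Alk1 (log2 fold change -1.21 ± 0.12, adjusted p = 1.17e-05). Spock2, a matrix proteoglycan of the testican group, fell in Smad4, Alk1 and Eng (-0.75, -1.49 and -0.69). Plaur, the urokinase receptor, rose in the same cohorts (1.02, 1.86 and 0.31). Tspan33, a tetraspanin partner of Adam10, rose in Alk1 (log2 fold change 2.44 ± 0.23, adjusted p = 9.38e-06).

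Other extracellular metalloproteinases and enhancers were followed as a list of 17. Of 12 tested, 2 were called higher and 7 lower in Smad4, none and 5 in Alk1 and none and 1 in Eng, and 1 and 3 of 11 in IgG mutants. Over all genes 15.8, 15.7, 9.08 and 8.12% were called lower in turn, and the gap was not tested. List medians were -0.71, -0.40, -0.15 and -0.40. Cpd, a carboxypeptidase, fell in all 4 comparisons (-0.39, -0.34, -0.23 and -0.31). Tll1, an astacin protease of the tolloid group, fell in Smad4 (-0.89), Alk1 (-0.84) and IgG mutants (-0.78), and the related Bmp1, which trims procollagens at the other end from Adamts2, rose in Smad4 (log2 fold change 0.39 ± 0.07, adjusted p = 0.00145) and IgG mutants (log2 fold change 0.38 ± 0.05, adjusted p = 0.00535). Mme, a membrane peptidase, fell in Smad4 (-0.85) and Alk1 (-1.08). Ece1, the endothelin-converting enzyme, rose in Smad4 (0.46). Papln, an ADAMTS-related matrix protein, fell in Smad4 (-0.40) and Alk1 (-0.45).

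Of 21 matrix substrates, 19 were tested, and 7 rose and 6 fell in Smad4, 4 and 5 in Alk1, 5 and 2 in Eng, and 4 and 5 in IgG mutants (medians -0.01, -0.14, 0.13 and -0.27). Beside them 33, 33.2, 21.5 and 17.8% of all genes were called. Vcan, the proteoglycan versican that Adamts1 and Adamts9 cut, fell in Smad4 (log2 fold change -1.59 ± 0.39, adjusted p = 0.0105), Alk1 (log2 fold change -1.10 ± 0.14, adjusted p = 0.000101) and IgG mutants (log2 fold change -1.32 ± 0.23, adjusted p = 0.013). Tnc, tenascin-C, fell in all 4 (-1.73, -1.22, -0.94 and -1.71). Some fibroblast, astrocyte and oligodendrocyte lineage markers were also called lower in Smad4 and IgG mutants, and their part in the Vcan and Tnc results was not tested. The basement membrane genes Col4a1 (0.92, 0.42 and 0.40) and Nid2 (0.98, 0.95 and 0.27) rose in the 3 untreated cohorts. Ltbp4 fell in these 3 (-0.43, -0.42 and -0.39), and Ltbp1, the partner of Adamtsl2, fell in Smad4 and Alk1 (-0.73 and -0.88) and rose in Eng (log2 fold change 0.49 ± 0.12, adjusted p = 0.0138).

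Of 28 membrane proteins known to be shed, 12 rose and 6 fell in Smad4, 6 and 10 in Alk1, 3 and 6 in Eng, and 7 and 5 in IgG mutants (medians 0.14, -0.17, -0.03 and 0.11). The falls in the Eng cohort include Eng itself, whose fall was set by the design. Pecam1, Cdh5, Kdr and Tek are also among the endothelial markers given before the results, and the part of those markers here was not tested. Beside them 33, 33.2, 21.5 and 17.8% of all genes were called. Epha2, an ephrin receptor, rose in all 4 (1.48, 0.92, 0.53 and 1.19), and Tek, the angiopoietin receptor, fell in all 4 (-0.58, -0.86, -0.53 and -0.34). Eng, which Mmp14 can release, rose in Smad4 (0.45) and IgG mutants (0.25) and fell in Alk1 (-0.36), while in the Eng cohort it is the deleted gene. The leukocyte adhesion receptor Vcam1 fell in Smad4 (-0.87), Alk1 (-1.24) and IgG mutants (-0.90), as did the tethered chemokine Cx3cl1 (-0.87, -0.38 and -0.80). Sele, E-selectin, rose in Alk1 (2.76) and Eng (1.91).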

How the data were processed

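Messenger RNA of bead-purified brain endothelial cells was measured in 39 libraries, made with an unstranded TruSeq kit per the labels' protocols. The deposited values are a signal per gene that the authors had normalized, not whole counts, aligned to mm10 per the submitters' processing notes. Which aligner, counter and normalization they used is not given in the sources used here. Genes with reads shared with near copies or antisense partners cannot be told apart in such data.

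Values were analysed with limma 3.58.1 (R 4.3.3, intensity trend) on log2(value + 2), two-sided, over genes that reached 20 in 5 or more libraries of a cohort (3 or more for IgG). The fold change of low genes is understated on this scale. Each untreated cohort is a table of its own and was fitted alone. Differences between cohorts came from a joint fit of 30 libraries and rest on separately normalized tables. Columns of the untreated cohorts show the group but not the sample. For LC10, 3 columns of per-sample values matched no sample and were not used, and LC10 mutants were set beside IgG mutants without a test. Of the gene symbols, 98.1% were in GENCODE M21. Of 24972 rows, 26 were dropped because their names were repeated or had turned into dates.

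Values in every library are given for members with a called log2 fold change of at least 1 in either direction, for the 4 TIMP genes and for a set of well-known members. Other members are named by their calls. The members and lists were chosen with earlier results of these data known. Alternatives covered the pseudocount, filter, scaling, trend, replicate block, marker levels as a term, library codes and leaving out each library. The fits with the fibroblast level, with the library code as a term or within 1 code, and the other scalings of the LC10 table, were added after seeing the data. The procedure was tested on simulated data. The result of 1 gene that the rule for named genes picked is not reported here.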

Additional observations from a re-analysis of the deposited data

Results flagged for a closer look

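In 7 of 132 groups of 5 libraries 1 library stood apart, with a gap to the nearest other above 0.71 of the range of the group. Chance gives about 1 such group in 20. Adam12 had 1021 in Alk1 mutant 1, beside 717 to 794 in the other mutants. Adam23 had 52.8 in Smad4 mutant 3, beside 4.57 to 17.9. Adamts1 had 33731 in Alk1 mutant 3, beside 10454 to 16331. The remaining 4 were Adamts18 in Eng wild type 1 (34.1 beside 12.4 to 18.1), Adamts20 in Alk1 wild type 5 (34.0 beside 6.55 to 10.8), Mmp14 in Eng wild type 3 (5688 beside 6013 to 6137) and Mmp15 in Eng mutant 3 (10735 beside 11575 to 11766).

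The genotype effect differed between cohorts in 38 tests of single members (limma, joint fit, adjusted p under 0.05), given as differences of log2 fold changes. Where Alk1 is 1 of the pair, the deleted gene cannot be told apart from age, tamoxifen dose and time since tamoxifen. Smad4 minus Alk1 was positive for Adam12 (1.71), Adamtsl2 (1.41), Mmp28 (1.23), Adamts8 (0.77), Timp1 (0.70), Adamts10 (0.52), Adam15 (0.47), Timp2 (0.42), Mmp15 (0.40) and Adam17 (0.25). It was negative for Adamtsl3 (-2.42), Adamts2 (-1.62), Adamtsl1 (-1.49), Adamtsl5 (-1.28), Adamts1 (-0.90), Adamts9 (-0.74) and Adam9 (-0.28). Smad4 minus Eng was positive for Adam12 (2.19), Mmp28 (1.19), Timp1 (0.77), Adamts8 (0.50), Adam15 (0.44), Adam19 (0.44) and Mmp14 (0.39). It was negative for Adamts16 (-2.10), Adamtsl1 (-1.09) and Mmp11 (-1.06). Alk1 minus Eng was positive for Timp3 (1.66), Adamts1 (1.23), Adamts9 (1.21), Adam11 (1.07), Adam12 (0.48), Mmp14 (0.38) and Adam9 (0.28). It was negative for Adamtsl2 (-1.01), Mmp2 (-0.63), Adamts10 (-0.48) and Mmp15 (-0.45). Of these, Adam19 and Adamts8 (Smad4 minus Eng) and Adam12 (Alk1 minus Eng) were lost with each library divided by its total, Adamtsl5 (Smad4 minus Alk1), Adam15 and Adamtsl1 (Smad4 minus Eng) and Mmp14 (Alk1 minus Eng) after quantile normalization, and Mmp14 (Smad4 minus Eng) and Adam9 (Alk1 minus Eng) under both.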

How the results depend on the processing

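With the mural marker level in the fit the members called were 11 in Smad4 (17 as reported), 12 in Alk1 (19) and 2 in IgG (13), and with the fibroblast level 11 in Smad4 and 0 in IgG. In the latter limma fit 9 of 49 members and 982 of 13939 genes had an unadjusted p under 0.05, and Adamtsl1 and Adamtsl3 changed sign to 0.52 and 0.17. Libraries without a code gave 8 calls in Alk1, and the joint fit gave 5 in Eng (11). The cause of these changes was not tested. Leaving out 1 library gave 15 to 20 calls in Smad4, 16 to 21 in Alk1, 9 to 13 in Eng and 6 to 13 in IgG, the lowest without mutant 2. Under every alternative run 9 of 17, 7 of 19, 4 of 11 and 0 of 13 calls were kept. As deposited, 22 members of LC10 mutants did not overlap IgG mutants (9 after scaling by the median of ratios, 10 with each library divided by its total). Over all genes, the Smad4 calls were 4620 and fell to 2443 with the glial and neuronal, 2050 with the mural and 1927 with the fibroblast level, and to 2461 without coded libraries. The Alk1 calls were 4530, with 2308 (mural), 2476 (fibroblast) and 2005 (uncoded). The Eng calls were 3082, with 1632 in the joint fit. The IgG calls were 2480, with 1130 (no trend), 1373 (glial and neuronal), 108 (mural) and 467 to 1485 without wild type 1, 2 or 3 or mutant 2 or 3. A paired analysis with a replicate block was possible in the IgG cohort only, and gave 13 calls, with Adamts20 lost (adjusted p = 0.0652) and Adamts16 gained (adjusted p = 0.0237). Same-numbered IgG libraries correlated at 0.061, 0.028 and -0.073, so the numbers are not shown to pair them. The fit of Eng libraries without a code was not run, since all Eng libraries carry one. The depth is unknown, which leaves the precision of low genes such as Adam23 and Adamts20 to the spread between libraries.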

Other observations

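Among genes of the families that were not kept, Mmp13, a collagenase, had 250.5 in Smad4 mutant 1, where the next highest untreated library had 91.3, and Mmp8 reached 40.4 in Smad4 wild type 4.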
